A study of Mus musculus with 6 samples.

Results

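The cells described here are Cd209a-positive dendritic cells from the mouse heart that carry high levels of major histocompatibility complex (MHC) class II transcripts. They were selected on their own unique molecular identifiers (UMIs, 1 for each captured transcript). A member had at least 1 UMI of Cd209a and at least 30 UMIs summed over the class II genes H2-Aa, H2-Ab1 and H2-Eb1. It had fewer than 5 UMIs of C1qa and C1qb, 0 of Cd79a and Cd79b, at most 2 of Col1a2 and Cdh5, and less than 1% of its UMIs from S100a8 and S100a9, limits that keep out macrophages, B cells, stromal cells and neutrophils. All cells considered had at least 1000 UMIs, at least 200 detected genes and at most 20% mitochondrial UMIs. This gave 311 members among 30014 cells, a share of 1.04% (exact binomial 95% interval 0.925 to 1.16%). Since the members were chosen by these counts, the levels of the genes in the rule, and every difference between members and other cells, are given as descriptions with no test.

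The study profiled the non-myocyte cells of ventricles from male mice aged 8 to 12 weeks, either wild type (WT, strain C57BL/6JRj) or Trpm4 knockout (KO, strain B6.Cg-Trpm4tm1.2-PG). Trpm4 encodes a cation channel opened by intracellular calcium. Hearts were taken 24 h after a sham operation, or 24 h or 72 h after the left anterior descending artery (LAD) of the heart had been tied off, which causes a myocardial infarction. All 6 groups had surgery, there was no sham group at 72 h among the samples used, and each group is 1 library made from the pooled cells of 4 mice. Ventricles were dissociated with the proteases thermolysin and papain, a 40 µm mesh held back the cardiomyocytes, and cells positive for the live stain Calcein-AM and negative for the dead-cell stain DAPI went on to 10x 3′ sequencing. Because there is 1 library per group, no difference below has a replicate check, no p-value was computed, and all intervals and limits cover counting error only.

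Dendritic cells take up antigen, cut it in lysosomes and load the peptides on MHC class II molecules, which they show to CD4 T cells. Conventional dendritic cells fall into a first type (cDC1), marked by Xcr1 and Clec9a, and a second type (cDC2), marked by lectins such as Clec10a and Mgl2, and monocytes that enter inflamed tissue can take on a similar program. Cd209a encodes a mouse relative of the human lectin DC-SIGN and is found on cDC2 and on monocyte-derived dendritic cells. After an infarct, monocytes and neutrophils enter the myocardium in the first days.

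The label fits its markers in part. All 6 marker genes of the label were present in all 6 libraries. Of these, Cd209a, H2-Ab1 and H2-Eb1 are in the rule, so their presence is no support for the label. Ciita, the master activator of class II transcription, was in 71.7% of members and Klrd1, which encodes the NK-receptor subunit CD94, in 70.4%, whereas Cd7, an immunoglobulin-family receptor better known from T and NK cells, was in 39.2%. Conventional dendritic cell genes were sparser: Flt3, the receptor that dendritic cell precursors need, had 157 UMIs and was in 32.2% of members, and the transcription factor Zbtb46 had 91 UMIs and was in 23.2%. Zbtb46 was also in 18.6% of endothelial cells, whose median level of 43.3 CPM exceeded that of the members. Genes shared with monocytes were common: Ccr2, the receptor that brings monocytes out of the marrow, lay between 491 and 636 CPM. CPM are counts per 1000000 UMIs, from the summed UMIs of the members of a library; since 3′ tags count molecules, no division by gene length was made. At a common 1000 UMIs Flt3 was in 4.61% of members, and it had 0 UMIs over the endothelial cells. The name dendritic cell is therefore used for the rule, and monocyte-derived cells and cDC2 are not separated by it.

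Promoters of class II genes are shown because the rule uses H2-Aa, H2-Ab1 and H2-Eb1, and class II genes are controlled together. H2-DMb1, H2-Oa and H2-Ob are not in the rule. Class II promoters are known for an upstream SXY module, of which the Y box holds the letters ATTGG, the reverse complement of CCAAT. The 70 bases from 100 to 31 before the RefSeq start (GRCm38.p6) are printed 5′ to 3′ on the gene's strand, with ATTGG in capitals. They come from chr17:34287854-34287923 (minus strand) for H2-Aa, chr17:34305767-34305836 (plus) for H2-Eb1, chr17:34153091-34153160 (plus) for H2-DMb1, chr17:34092279-34092348 (plus) for H2-Oa and chr17:34238805-34238874 (plus) for H2-Ob.

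H2-Aa: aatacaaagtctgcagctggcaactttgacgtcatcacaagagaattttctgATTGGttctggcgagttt
H2-Eb1: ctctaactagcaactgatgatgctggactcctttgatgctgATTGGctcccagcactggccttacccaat
H2-DMb1: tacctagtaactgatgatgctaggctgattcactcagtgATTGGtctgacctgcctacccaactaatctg
H2-Oa: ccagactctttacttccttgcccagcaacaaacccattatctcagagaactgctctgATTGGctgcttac
H2-Ob: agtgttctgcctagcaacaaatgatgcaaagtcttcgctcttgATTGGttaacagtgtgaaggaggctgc

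Of the 9 class II genes listed, H2-Ab1, a gene of the rule, had no match in the RefSeq promoter table, and the other 8 did. ATTGG stood on the gene's strand in this window in 7 of them (H2-Aa, H2-Eb1, H2-Eb2, H2-DMb1, H2-DMb2, H2-Oa and H2-Ob) and not in H2-DMa. Among all 32851 promoters of the table, the window held ATTGG on the gene's strand in 8.1% and on either strand in 15.2%. A match describes these letters and is no proof of a bound site.

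The 6 libraries held 3625 to 7286 deposited cells and between 20995280 and 45649061 UMIs. The KO library at 72 h was the shallowest, with a median of 2182.5 UMIs per passing cell, and the WT library at 72 h the deepest, with 8559. Members were deeper than most cells, with medians of 9564.5 to 12599 UMIs per library, and 3681351 UMIs in all. Over all deposited cells Trpm4 was at 4.29 to 8.79 CPM in the 3 WT libraries and 2.57 to 6.2 CPM in the 3 KO libraries, below WT in each condition. The position of the deleted part is not given in the sources used here, and a 3′ tag outside it would not check the labels. Libraries shared 3 to 14 cell barcodes per pair, and members shared 0.

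Members made up 1.01% of passing cells in the WT sham library (54 of 5328, interval 0.762 to 1.32%) and 0.601% in the KO sham library (35 of 5827, 0.419 to 0.834%). At 24 h after ligation they were 0.750% in WT (24 of 3201, 0.481 to 1.11%) and 0.639% in KO (43 of 6734, interval 0.463 to 0.859%). At 72 h they were 2.02% in WT (89 of 4406, 1.63 to 2.48%) and 1.46% in KO (66 of 4518, 1.13 to 1.85%). The share at 72 h was 2.69 times that at 24 h in WT and 2.29 times in KO, and in both genotypes the intervals did not overlap. The shares at 24 h after ligation overlapped with those after sham, at 0.740 times in WT and 1.06 times in KO. Each KO share was below the WT share of its condition, at 0.593, 0.852 and 0.723 times, with overlapping intervals. The rule needs whole UMIs and thus depends on depth: with every cell thinned to 1000 UMIs, far fewer cells met it. The 72 h to 24 h ratio in KO was then 2.04, and the intervals of those KO shares overlapped, while those in WT stayed apart.

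Counted over leukocytes only (cells with at least 5 UMIs of Ptprc, Laptm5, Coro1a, Cd52 and Tyrobp, and at most 2 of Cdh5 and Col1a2), the picture at 24 h differed. The members were then 2.53% of leukocytes in the WT sham library and 2.15% in the KO one, 1.13% and 0.778% at 24 h after ligation, and 2.35% and 1.99% at 72 h. At 24 h the share among leukocytes was 0.447 times the sham share in WT and 0.362 times in KO, with intervals that did not overlap. The leukocytes themselves numbered 2135 of 5328 passing cells in WT and 1631 of 5827 in KO after sham, and 2122 of 3201 and 5528 of 6734 at 24 h after ligation. At 72 h they numbered 3790 of 4406 in WT and 3324 of 4518 in KO. Neutrophils, cells that enter an infarct early, numbered 519 in WT and 396 in KO after sham, 794 and 2701 at 24 h after ligation, and 342 and 151 at 72 h.

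**Figure D1:**
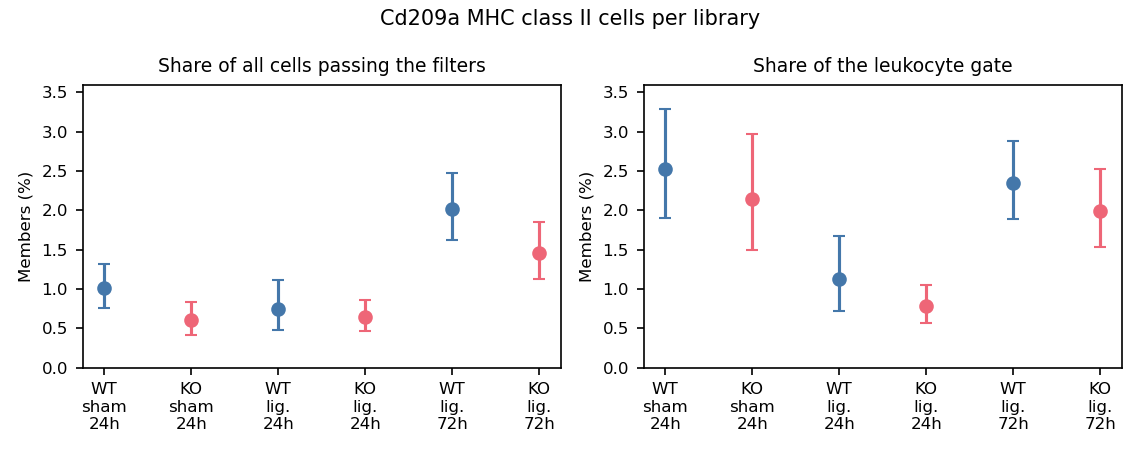
Share of the Cd209a MHC class II dendritic cells in percent of all passing cells (left) and of leukocytes (right) in each of the 6 libraries, WT in blue and KO in red, with exact 95% binomial intervals. Of all passing cells the shares at 72 h (2.02% and 1.46%) lie above those at 24 h after ligation; of leukocytes the shares at 24 h (1.13% and 0.778%) lie below those after sham.

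Levels in members are given with WT first and KO second in each condition. Cd209a itself (chromosome 8, 3743397 to 3748984, minus strand, GRCm38) was at 589 and 1058 CPM after sham, 1377 and 1408 at 24 h after ligation, and 673 and 719 at 72 h. The median member held 6 UMIs of it and the highest 70, while 49 members (15.8%) passed with a single UMI. The class II genes of the rule lay on chromosome 17. H2-Aa, the alpha chain of the I-A molecule, was at 7433 and 7290.2 CPM after sham, 7432 and 7553 at 24 h after ligation, and 9546 and 8715 at 72 h. H2-Ab1, its beta chain, was at 9157 and 8476 CPM after sham, 7909 and 8514 at 24 h after ligation, and 10883 and 9729.7 at 72 h. H2-Eb1, the beta chain of I-E, was at 7185 and 6858 CPM after sham, 6015 and 6099 at 24 h after ligation, and 8933 and 8099.8 at 72 h. For all 3 genes both 72 h libraries lay above the other 4. At the lower limit of the rule, the 30 members with a class II sum of 30 to 59 had 345 CPM of Klrd1, 749 of Napsa and 9257 of Cd74. The 11 cells just outside, with a sum of 15 to 29 and otherwise meeting the rule, had 118, 708 and 4944 CPM. The libraries did not weigh equally: the KO library at 72 h gave 17 of the 30 inside and 3 of the 11 outside. The Klrd1 level outside came from 11 UMIs, and the part of the library mix was not tested.

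Genes that act with class II molecules but were not in the rule were present in every library. Cd74, the invariant chain that escorts class II molecules to the endosome, lay between 22523 and 29399 CPM. H2-DMa and H2-DMb1, which encode the DM molecule that exchanges peptides, lay between 940.3 and 1184 and between 1027 and 1759 CPM. Ifi30, a thiol reductase, lay between 2398 and 3471 CPM, and Ctss, the cathepsin that trims the invariant chain, between 1175 and 2091 CPM. Ciita was nearly level, at 182 and 149 CPM after sham, 166 and 136 at 24 h after ligation, and 179 and 159 at 72 h. With every cell thinned to 1000 UMIs, Ciita was in 14.8% of members and 0.0619% of endothelial cells, which serve as the background of free RNA; before thinning, at median depths of 11478 and 3630 UMIs, it was in 71.7% and 0.187%. The genes of the DO molecule, which holds DM back, varied more and are described with the time course.

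**Figure D2:**
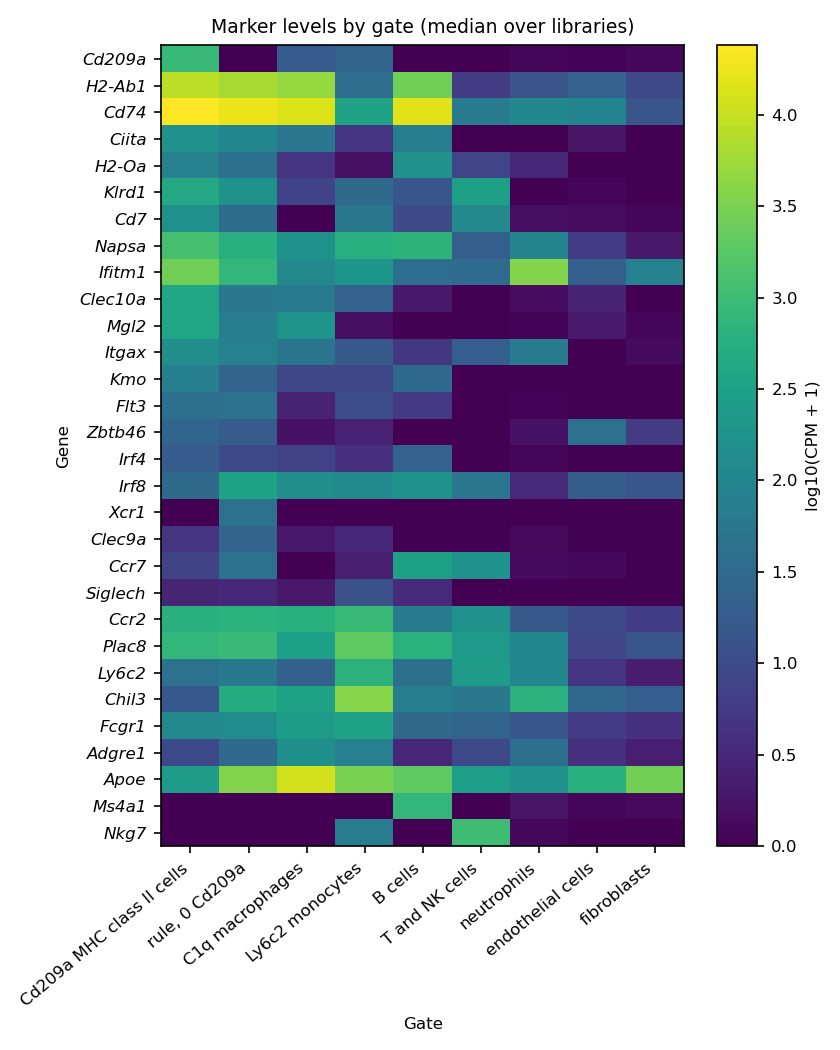
Levels of 30 genes (rows) in members and 8 other cell gates (columns), as the median over libraries of log10(CPM + 1). The class II genes, Cd74 and Napsa are high in members, the cDC1, B-cell and T-cell genes are near 0 in members, and the monocyte genes Ccr2 and Plac8 are shared with the Ly6c2 monocytes.

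Several genes outside the rule marked most members. Napsa, an aspartic protease of the endolysosome, was in 95.8% of members and lay between 1045 and 1349 CPM. Klrd1 (chromosome 6, 129591782 to 129598775, plus strand) was at 489 and 375 CPM after sham, 372 and 278 at 24 h after ligation, and 704 and 636 at 72 h. After thinning it was in 32.7% of members and 0.0499% of endothelial cells, against 70.4% and 0.125% before. Genes that define NK cells were not detected, with Nkg7, Klrb1c, Gzma and Ncr1 all at 0 UMIs, and 0 of 311 members allows a share of up to 0.965% of cells with a UMI. Cd7 was at 85.2 and 130.3 CPM after sham, 98.1 and 185 at 24 h after ligation, and 231 and 256 at 72 h. Ifitm1, an interferon-induced membrane protein, lay between 1917 and 3820.4 CPM.

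Clec10a and Mgl2, neighbouring lectin genes on chromosome 11 (70156197 to 70170834 and 70130329 to 70137550, both on the plus strand), differed in how evenly members carried them. Clec10a, which binds galactose-type sugars, was in 73.3% of members, at 322 and 465 CPM after sham, 612 and 473 at 24 h after ligation, and 315 and 290.4 at 72 h. Mgl2, its close relative, was in 34.1%, at 751 and 539.7 CPM after sham, 277 and 418 at 24 h after ligation, and 372 and 259 at 72 h. In the WT library at 24 h, 1 of the 3 members with Mgl2 held 92.7% of its UMIs. The 2 genes are related in sequence, so reads that fit both could be split or lost in counting, and their separate values are uncertain.

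At the common depth of 1000 UMIs, Napsa was in 64.2% of members and 0.258% of endothelial cells (unthinned 0.920%). Cd7 was then in 13.4% of members and 0.0406% of endothelial cells (unthinned 0.156%), Clec10a in 26.6% of members and 0.0755% of endothelial cells (unthinned 0.187%) and Mgl2 in 17.8% of members and 0.0942% of endothelial cells (unthinned 0.359%). All 4 genes were thus above the background of free RNA in members.

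To see what comes with Cd209a, members were set beside cells that met the whole rule but had 0 Cd209a UMIs. There were 488 such cells over the 6 libraries; the WT library at 24 h held 18 of them and was left out, which leaves 5 libraries. Median log2 ratios over those libraries were 2.58 for Clec10a, 2.37 for Cd7, 2.23 for Mgl2, 1.83 for Ifitm1, 1.62 for Cd72 (a lectin-like inhibitory receptor known from B cells), 1.41 for Klrd1, 1.25 for H2-Oa and 1.05 for Napsa. The cells without Cd209a had more of macrophage and monocyte genes. Median log2 ratios were −5.47 for Chil3, −4.95 for Apoe, −3.33 for Trem2 and Irf8, −3.08 for Ms4a7, −2.57 for Spp1 and −1.98 for Lyz2. Irf8, the factor that cDC1 need, was at a median of 361 CPM in the cells without Cd209a over the 5 libraries. Over all 6 libraries, the summed cDC1 markers were at a median of 934 CPM there against 349 in members. The cells without Cd209a thus carried genes of several classes, and a member-like cell whose Cd209a was not captured is counted among them.

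Among transcription factors of dendritic cells, Id2 was at 309 and 337 CPM after sham, 348 and 311 at 24 h after ligation, and 170.2 and 128 at 72 h. Irf8 was at 26.0 and 126 CPM after sham, 16.9 and 24.4 at 24 h after ligation, and 36.1 and 36.3 at 72 h, and Irf4, the factor of cDC2, had 64 UMIs over all members. The integrin Itgax (CD11c) lay between 126 and 164 CPM, Traf1 between 150.3 and 237 CPM and the corepressor Cbfa2t3 between 138 and 235 CPM. Markers of other dendritic cell types were rare: Xcr1 had 2 UMIs, Clec9a 14, Cadm1 9 and Siglech, of plasmacytoid dendritic cells, 9. Ccr7, which guides mature dendritic cells to lymph nodes, had 42 UMIs in 5 members, and Fscn1, the bundling protein of their dendrites, had 3. The costimulatory ligands Cd86 and Cd80 lay between 53.4 and 112 and between 8.64 and 67.7 CPM.

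Markers of other leukocytes were checked as whole lists. The 12 monocyte genes summed to a median of 3229 CPM in members against 12926 CPM in Ly6c2 monocytes. Plac8 and Ms4a6c were at 554 to 1269 and 627 to 961 CPM, and Ly6c2 and Chil3, which lead in classical monocytes, at 13 to 114 and 3.35 to 77.8 CPM against medians of 654 and 3842 CPM in the monocytes. The monocyte gate was itself chosen on Ly6c2, so part of the Ly6c2 gap was fixed in advance. The 15 macrophage genes summed to 322 to 1144 CPM against 23869 in C1q macrophages, with Lyve1 at 0. C1qa and C1qb are in this list, capped in members by the rule and required in C1q macrophages, which fixed part of that gap too. Of the 10 B-cell genes, 5 were at 0 UMIs, 2 of them fixed by the rule, but Ighm was at 23.7 to 126 CPM against 2511 in B cells. Of the 12 T and NK genes, 4 were at 0, and the 21 UMIs of Trbc2 came from 1 member of the WT library at 24 h.

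A second look, chosen after the data had been seen, split members by whether they held an Mgl2 UMI. With Mgl2 were 48.1% of members in the WT and 57.1% in the KO sham library, 12.5% and 25.6% at 24 h after ligation, and 36.0% and 21.2% at 72 h. Of 1243 genes measured, 41 were higher and 70 lower with Mgl2 in all 6 libraries, the 41 including Mgl2 itself, which the split fixed. How many genes would go 1 way in all 6 libraries with no difference was not computed. The WT library at 24 h had only 3 members with Mgl2. Members with Mgl2 had more Tnip3, an inhibitor of NF-kappaB signalling (median log2 ratio 1.34), Itgax (0.58) and H2-Eb1 (0.58). They had less Cd7 (−2.13), Lyz2 (−1.60), Plac8 (−1.60), Ms4a6b (−1.51), Cebpb (−1.05) and Fcgr1 (−0.75), which encodes the high-affinity IgG receptor of monocytes and macrophages. The median level of Plac8 was 415 CPM with and 1103 CPM without Mgl2, and that of Cd7 33.3 and 243 CPM. Members with Mgl2 were also deeper, with library medians of 10088 to 16920 UMIs against 9403 to 11782, and the part of depth in the split was not tested.

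**Figure D3:**
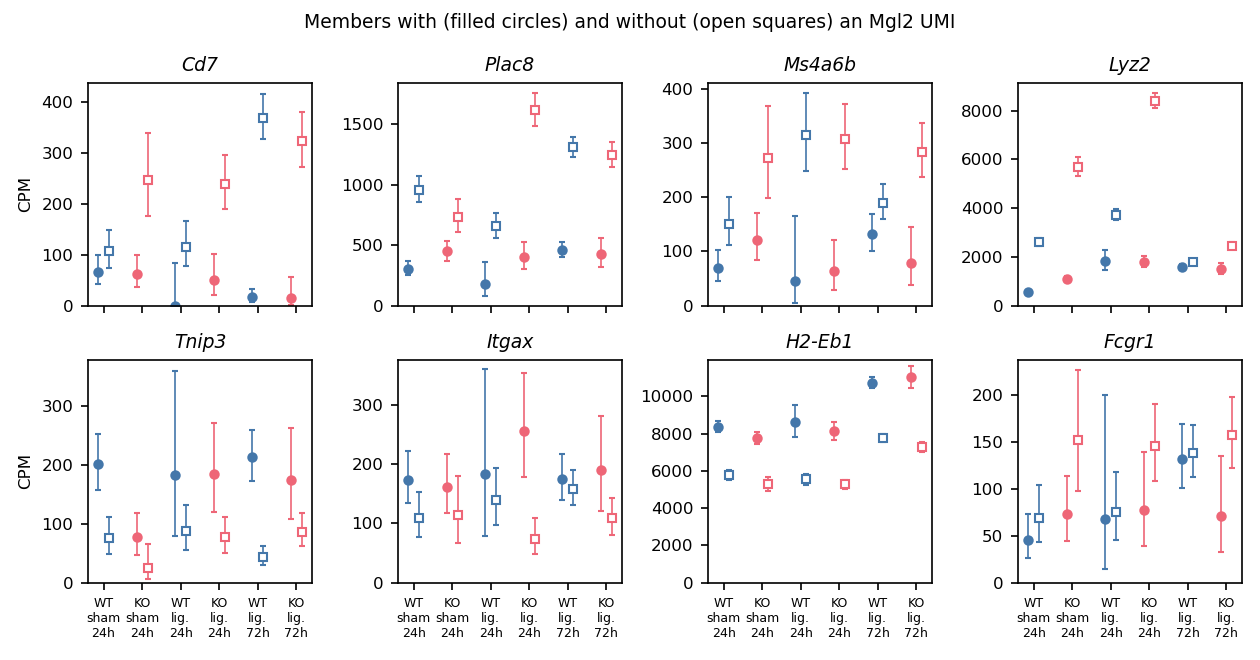
CPM of 8 genes in members with (filled circles) and without (open squares) an Mgl2 UMI in each of the 6 libraries. Bars are 95% Poisson intervals. Plac8, Cd7 and Lyz2 lie lower in members with Mgl2 in all 6 libraries; the WT library at 24 h has 3 members with Mgl2.

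Levels of members were then compared between libraries in 7 pairs: 24 h after ligation to sham and 72 h to 24 h in each genotype, and KO to WT in each condition. The pairs share libraries, so each is given for itself. A gene was measured where it had at least 50 UMIs over the pair, and called where the ratio was at least 2-fold and its exact 95% counting interval left out 1. Such a call describes 2 pools of cells and cannot separate the condition from the mice, the operation or the library. A call can also rest on 1 cell, so each was repeated without the member that held most UMIs of the gene in the higher library, a check added after the data had been seen.

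At 24 h after ligation, members of both genotypes had higher levels of the surface receptors Plaur, Clec4n and Fcgr3 and of Sdc4 than after sham, and a lower level of the cyclin gene Ccnd1. Of 2449 genes measured in WT, 99 (4.04%) were called higher and 80 (3.27%) lower than after sham, and 57 and 53 were called without the top member. In KO, of 2194 genes, 41 (1.87%) were higher and 42 (1.91%) lower, and 35 and 20 without the top member. With TMM scaling, which moved all genes by 0.12 on the log2 scale in KO, 65.5% of the KO calls were higher in place of 49.4%. The rule for named genes singled out 7 genes called the same way in both genotypes. Sdc4, a heparan sulfate proteoglycan of the cell surface, was at 24.5 and 60.5 CPM after sham, 281 and 175 at 24 h after ligation, and 26.8 and 6.91 at 72 h. Its 24 h levels stood above every other library, and the ratio to sham was 11.4 (6.73 to 20.6) in WT and 2.89 (1.84 to 4.67) in KO. Plaur, the receptor of urokinase, was at 65.0 and 44.2 CPM after sham, 216 and 219 at 24 h after ligation, and 35.2 and 22.5 at 72 h, with ratios of 3.33 (2.24 to 4.99) and 4.96 (3.03 to 8.56).

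Of the others, Clec4n (Dectin-2), a lectin that binds fungal mannans, was at 114 and 149 CPM after sham, 504 and 443 at 24 h after ligation, and 148 and 102 at 72 h, with ratios to sham of 4.42 (3.34 to 5.88) in WT and 2.97 (2.24 to 3.99) in KO. Fcgr3, an activating IgG receptor, was at 98.2 and 86.1 CPM after sham, 294 and 256 at 24 h after ligation, and 60.4 and 70.9 at 72 h, with ratios of 3.00 (2.16 to 4.18) and 2.97 (2.05 to 4.41). For both genes the 24 h libraries were the highest. Lyz2, which encodes lysozyme, was 2.28-fold higher in WT and 2.35-fold higher in KO, and I830077J02Rik 2.41-fold and 2.52-fold; the WT call of each was lost without the top member. Ccnd1, the cyclin that carries cells into S phase, was the only one lower, at 290.2 and 298 CPM after sham, 101 and 112 at 24 h after ligation, and 282 and 258 at 72 h, with ratios of 0.350 (0.230 to 0.515) and 0.375 (0.268 to 0.518).

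The highest and lowest ratios were taken among called genes that reached 100 CPM, and 0.25 of the level of the highest other gate, in the library where they were higher; listed genes outside these limits, such as Apoe and Stmn1 in WT, had ratios farther from 1. Within these limits the highest in WT at 24 h were the chemokine Ccl17 (11.5-fold, from 117 to 1346 CPM, from 9 of 54 to 7 of 24 members), Sdc4, the antiproliferative gene Btg1 (6.27-fold) and the signal regulatory protein gene Sirpb1c (6.25-fold). Ccl17 draws CCR4-bearing T cells and is a known product of cDC2. The lowest in WT were Smpdl3a, a phosphodiesterase (0.330 times the sham level), Ccnd1, Cdk4, its kinase partner (0.364 times), and Mgl2 (0.369 times). In KO, within the same limits, the highest were Atf3 (5.31-fold), a stress-induced transcription factor, Plaur, the inhibitory receptor Pilra (3.73-fold) and Ltb4r1, the receptor of leukotriene B4 (3.02-fold). Gm34455 (0.129 times) and Il4i1, an amino acid oxidase of mature dendritic cells (0.0353 times), were among the lowest. For Il4i1, 1 KO sham member held 83.8% of the UMIs of that library. Without that member the log2 ratio of Il4i1 was −2.29 in place of −4.83, still called lower. The calls of Cxcl10 and Ccl24 rested on 1 KO sham member each. Whether WT and KO differed in these steps was not tested.

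Among the lists, 10 of 24 cytokine and chemokine genes were measured in WT and 9 of them had a ratio above 1, with 6 called higher and a median log2 ratio of 1.06 against −0.04 over all genes. Of those 6, Tgfb1 (2.41-fold), Ccl4 (10.4-fold) and Ccl17 were also called without the top member, whereas Il1b, Ccl2 and Cxcl2 were not. In KO 12 were measured, 4 called higher and 2 lower, with a median of 0.39. Il1b, the main inflammatory interleukin of myeloid cells, was at 644 and 354 CPM after sham, 1384 and 1206 at 24 h after ligation, and 1117 and 969.7 at 72 h, 3.41-fold higher in KO. Cxcl2, which attracts neutrophils, was 29.7-fold higher in KO, from 4.65 to 138 CPM.

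Of the 15 glycolysis and hypoxia genes, 10 were measured in WT, with Hk2, the first enzyme of glycolysis, called higher (2.69-fold) and a median log2 ratio of 0.42. In KO all 11 measured were above 1, with the glucose transporter Slc2a1 (3.13-fold) and the enzyme Tpi1 (2.35-fold) called and a median of 0.93. Proliferation genes went the other way in WT: 0 of the 4 measured were above 1, and Stmn1, a regulator of microtubules, was at 0.0808 times its sham level. Class II genes outside the rule had medians of 0.03 in WT, which was −0.01 with TMM scaling, and 0.09 in KO. Only H2-DMb2 was called, lower in WT, and not without the top member. In the cDC2 list Il1r2, the decoy receptor of interleukin 1, was 4.61-fold higher in WT and 2.55-fold higher in KO.

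Genes that respond to tissue dissociation moved with this step. In WT 13 of 14 measured were above 1, with 6 called higher (Fos, Jun, Jund, Egr1, Ier3 and Dusp1), and in KO 4 of 13 were called (Fos, Ier3, Atf3 and Dusp1). Without the top member Jun and Egr1 in WT and Fos, Ier3 and Dusp1 in KO were not called. The whole list of 16 genes summed to 4516 and 4380.1 CPM after sham, 7804 and 5464 at 24 h after ligation, and 5634 and 6048 at 72 h. Fos was 2.59-fold and Dusp1 2.96-fold higher in WT. Neutrophil genes also moved: the 10 summed to 28.9 and 25.6 CPM after sham, 149 and 516 at 24 h after ligation, and 52.0 and 202 at 72 h, of which S100a8 and S100a9 are capped by the rule. In KO S100a8 was 32.7-fold and S100a9 8.51-fold higher than after sham. The 15 macrophage genes summed to 322 and 1144 CPM after sham, 744 and 355 at 24 h after ligation, and 667 and 966 at 72 h, and 4 of 5 measured were called lower in KO, 2 of them (Apoe and Pf4) without the top member also. The part of these lists in the results above was not tested.

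The same genes were read in the other gates. Sdc4 in the cells without Cd209a was at 88.4 and 116 CPM after sham, 419.6 and 269 at 24 h after ligation, and 54.3 and 52.4 at 72 h, and in C1q macrophages at 154 and 152 CPM after sham, 512 and 250.3 at 24 h after ligation, and 95.5 and 122 at 72 h. Its 24 h libraries were thus the highest in those gates also. Plaur in C1q macrophages was at 56.3 and 59.6 CPM after sham, 533 and 260.2 at 24 h after ligation, and 57.3 and 49.3 at 72 h. Ccnd1 in C1q macrophages was at 154 and 131 CPM after sham, 14.4 and 51.3 at 24 h after ligation, and 126 and 117 at 72 h, again lowest at 24 h.

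Between 24 h and 72 h after ligation more genes were called than between sham and 24 h, in both genotypes. In WT, of 3293 measured, 221 (6.71%) were higher and 224 (6.8%) lower at 72 h, and 194 and 128 without the top member. In KO, of 2441, 83 (3.4%) were higher and 134 (5.49%) lower, and 53 and 96 without the top member. With TMM scaling, which moved all genes by 0.12 in WT, 64.2% of the WT calls were higher in place of 49.7%. By the rule for named genes, 13 genes were higher and 35 lower in both genotypes. The lists are given below, each with its counts in WT and in KO.

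Sdc4, Plaur, Clec4n and Fcgr3, high at 24 h, were lower at 72 h in both genotypes. Sdc4 was at 0.0956 (0.0615 to 0.145) times its 24 h level in WT and 0.0396 (0.0105 to 0.105) times in KO, and Plaur at 0.163 (0.108 to 0.244) and 0.102 (0.0528 to 0.183) times. Clec4n was at 0.295 and 0.230 times, Fcgr3 at 0.205 and 0.277 times, and Fcgr2b, the inhibitory IgG receptor, at 0.249 and 0.242 times. These are receptors for immune complexes and for microbial sugars. Ccl17 had the lowest ratio among the named genes, at 117 and 654 CPM after sham, 1346 and 920.1 at 24 h after ligation, and 15.1 and 0 at 72 h. Its 453 UMIs in 11 KO members at 24 h stood against 0 at 72 h, so that the KO ratio was at most 0.00564 when 3 UMIs are put in place of 0, and in WT it was 0.0112 (0.00658 to 0.0180).

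Cd72 was among the genes called higher in both genotypes, at 47.6 and 39.5 CPM after sham, 10.1 and 26.4 at 24 h after ligation, and 292 and 201 at 72 h. The 72 h level was 28.8 (9.76 to 140.1) times that of 24 h in WT and 7.59 (4.27 to 14.7) times in KO. Cd72 was not particular to members: C1q macrophages had a median of 114 CPM over libraries (23.7 to 259), against 43.6 CPM in members. In the cells without Cd209a it ranged from 4.52 to 199 CPM. Selenoh, a selenoprotein of the nucleus, was at 88.1 and 69.8 CPM after sham, 30.4 and 34.5 at 24 h after ligation, and 157 and 159 at 72 h, with ratios of 5.15 (2.66 to 11.4) and 4.61 (2.73 to 8.25). For both genes the 72 h levels were above those of 24 h and of sham. Ccnd1 was 2.78-fold and 2.31-fold higher, which brought it to 282 and 258 CPM. Slamf9, of the SLAM receptor family, was 4.58-fold and 2.19-fold higher, Pltp, a phospholipid transfer protein, 2.86-fold and 4.20-fold, and Rnase6 2.52-fold and 2.66-fold. Smpdl3a, Grn and Ckb were higher in both too, with KO calls that were lost without the top member.

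**Figure D4:**
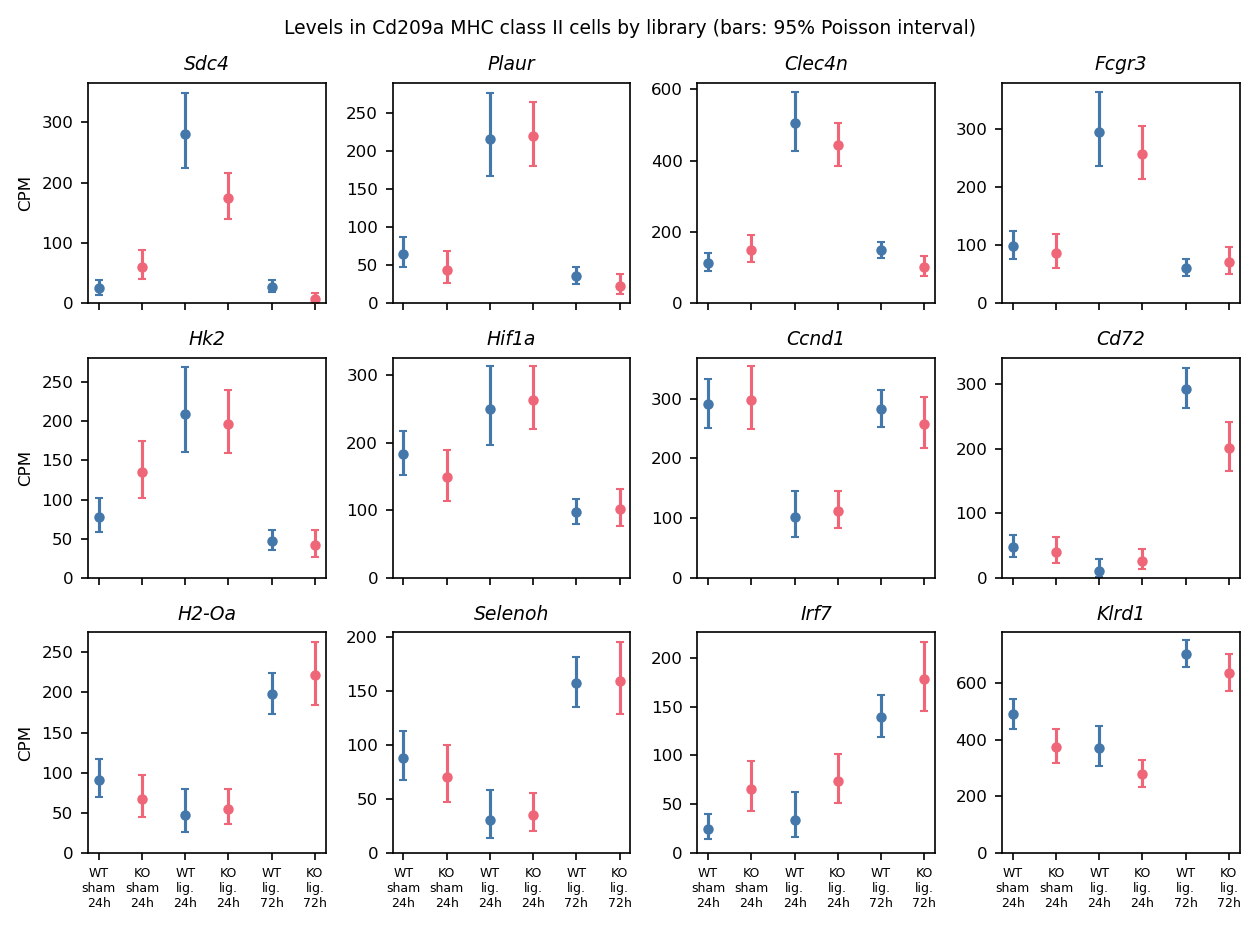
CPM of 12 genes in the members of each of the 6 libraries (WT in blue, KO in red), with 95% Poisson bars. Sdc4, Plaur, Clec4n and Fcgr3 are highest in the 24 h ligation libraries, Ccnd1 is lowest there, and Cd72, H2-Oa and Selenoh are highest at 72 h.

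H2-Oa, the alpha chain of the DO molecule that inhibits peptide exchange by DM, was at 91.0 and 67.5 CPM after sham, 47.4 and 54.8 at 24 h after ligation, and 198 and 221 at 72 h. At 72 h it was at 4.18 (2.44 to 7.76) times its 24 h level in WT and 4.03 (2.65 to 6.36) times in KO. Its partner H2-Ob was at 59.2 and 58.2 CPM after sham, 20.3 and 26.4 at 24 h after ligation, and 69.6 and 57.0 at 72 h, called higher in WT only (3.43-fold, 1.51 to 9.61). H2-DMb2 was at 185 and 184 CPM after sham, 91.3 and 132 at 24 h after ligation, and 226 and 228 at 72 h and was likewise called in WT (2.48-fold). In C1q macrophages H2-Oa did not pass 15.6 CPM in any library. In the cells without Cd209a it was at 49.5 and 27.5 CPM after sham, 31.9 and 15.8 at 24 h after ligation, and 83.5 and 153 at 72 h. Of the 13 presentation genes outside the rule, 10 were measured in WT, with 3 called higher, 0 lower and a median log2 ratio of 0.44. In KO, 8 were measured, with 1 called and a median of 0.16. The 3 class II genes of the rule were above 1 in both genotypes, at medians of 0.46 and 0.21, with 0 called.

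At 72 h Klrd1 was at 2.29 (1.87 to 2.80) times its 24 h level in KO, the only one of the label's markers outside the rule to be called there. In WT Klrd1 was not called (1.89-fold, 1.55 to 2.33), while Cd7 was (2.35-fold, 1.60 to 3.58). In the cDC2 list, 9 genes were measured in each genotype and 3 in WT and 2 in KO had ratios above 1, with medians of −0.93 and −0.70; with no UMI minimum the WT median was −0.29. Each of the cDC2 calls (Cd209a, Klf4 and Il1r2 in WT, Itgam and Il1r2 in KO) was lost without the top member. Cd209a belongs to this list and was used by the rule, so its values there were not independent of the selection. Bcl11a, a factor of lymphoid and plasmacytoid lineages, was 3.92-fold higher in WT, and Ighm 3.79-fold. The B-cell list summed to 65.0 and 62.8 CPM after sham, 27.1 and 65.0 at 24 h after ligation, and 93.1 and 129.6 at 72 h, with Ms4a1 and Pax5 at 0 UMIs. Id2 was 0.489 times its 24 h level in WT and 0.412 times in KO, the WT call being lost without the top member.

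Proliferation genes were higher at 72 h in WT. All 8 measured of 16 had ratios above 1, 6 were called and the median log2 ratio was 2.06, or 1.36 with no UMI minimum. Stmn1 had 2 UMIs at 24 h and 240 in 16 members at 72 h (29.8-fold, 8.15 to 247). Mki67, the antigen of cycling cells, had 0 and 62 UMIs, in 12 members at 72 h, and was at least 5.12-fold higher when 3 UMIs are put in place of 0. Top2a, a topoisomerase of dividing cells, had 0 and 88 UMIs (at least 7.27-fold), and Birc5, which encodes survivin, 0 and 105 (at least 8.68-fold). In KO 2 proliferation genes were measured, and Hmgb2, a chromatin protein, was called higher there (2.55-fold) and in WT (3.40-fold). The whole list summed to 1142 and 698 CPM after sham, 511 and 394 at 24 h after ligation, and 1774 and 785 at 72 h.

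Interferon-induced genes were higher at 72 h in both genotypes. In WT 13 of 14 measured were above 1, 6 were called and the median was 0.94. In KO all 12 measured were above 1, 5 were called and the median was 0.85. Irf7, the factor that amplifies interferon production, was at 24.5 and 65.1 CPM after sham, 33.8 and 73.1 at 24 h after ligation, and 139 and 178 at 72 h, 4.12-fold higher in WT and 2.43-fold in KO, the KO call being lost without the top member. Ifit3, an RNA-binding antiviral protein, was 6.45-fold and 30.6-fold higher. WT also had calls of Ifit1 (5.33-fold), Ifit2 (12.1-fold), Bst2 (2.22-fold) and Rtp4 (2.55-fold), and KO of Isg20 (2.86-fold) and Ifi209 (2.38-fold). The sum of the list was 647 and 1284 CPM after sham, 899.8 and 1208 at 24 h after ligation, and 1679 and 2275 at 72 h, above sham at 72 h in both genotypes.

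Glycolysis and hypoxia genes were lower at 72 h. In WT 0 of 13 measured were above 1, 4 were called lower (Slc2a1, Hk2, Bnip3 and Hif1a, of which Slc2a1 was lost without the top member) and the median was −0.57. In KO 0 of 11 were above 1, 10 were called lower (Eno1 and Ldha not without the top member) and the median was −1.17. Hif1a, the oxygen-regulated transcription factor, was at 183 and 149 CPM after sham, 250.3 and 264 at 24 h after ligation, and 97.3 and 102 at 72 h, or 0.389 (0.288 to 0.527) and 0.386 (0.279 to 0.529) times its 24 h level. Hk2 was at 78.0 and 135 CPM after sham, 209.7 and 197 at 24 h after ligation, and 47.0 and 41.5 at 72 h, with ratios of 0.224 and 0.211, and Pfkp, the platelet isoform of phosphofructokinase, had ratios of 0.302 and 0.389. KO calls also took in Pgk1 (0.337 times), Tpi1 (0.396 times) and Pkm (0.473 times), enzymes of the later steps. The KO library at 72 h is the shallowest, and its part in the KO values was not tested; the list summed to 5208 and 4555 CPM after sham, 6928 and 7643 at 24 h after ligation, and 4759 and 3574 at 72 h. In C1q macrophages Hk2 was at 75.6 and 159 CPM after sham, 261 and 204 at 24 h after ligation, and 43.2 and 58.4 at 72 h, lower at 72 h than at 24 h as well.

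Cytokine genes were mostly lower at 72 h, with 7 of 12 measured called lower in WT and 5 of 12 in KO, at medians of −1.16 and −0.73. Without the top member, Tgfb1, Ccl4, Ccl17 and Osm held in WT, and Tgfb1, Ccl6, Ccl17 and Osm in KO. Tgfb1, a cytokine that restrains inflammation, was at 0.355 and 0.467 times its 24 h level. Ccl5 and Cxcl10 were called higher in KO. Of the lysosome genes, 4 of 14 measured were called higher in WT, namely Ctsd (5.12-fold), Ctsl (3.36-fold), Grn (3.33-fold) and Cd63 (0 and 55 UMIs), and 1 of 13 in KO. Ctsd and Ctsl are proteases that cut antigen and invariant chain. Costimulatory genes showed 6 of 6 measured above 1 in WT with Tnfsf9 called (2.52-fold), and 2 of 5 in KO with 0 called. Further genes lower in both genotypes were Rap2a (0.132 and 0.263 times), a small GTPase, Cdkn1a (0.344 and 0.254 times), the cell cycle inhibitor p21, and Xbp1 (0.297 and 0.351 times), a factor of secretory and dendritic cells.

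Beside these values, the dissociation list in WT had 1 of 15 measured genes above 1 and 4 called lower, of which Hspa1a held without the top member and Egr1, Ier3 and Hspa1b did not; Hspa1a and Hspa1b are near-identical copies whose separate values are uncertain. In KO it had 10 of 15 above 1, with Fosb called higher and Ier3 lower, both lost without the top member. The monocyte list, which summed to 2642 and 3087 CPM after sham, 3278 and 4336 at 24 h after ligation, and 3180.2 and 3531 at 72 h, had 2 genes called lower in WT and 2 called higher and 4 lower in KO. Its part in the time differences was not tested.

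Fewer genes were called between KO and WT members than between 72 h and 24 h. After sham, of 2710 genes measured, 58 (2.14%) were higher and 35 (1.29%) lower in KO, and 26 and 23 without the top member. At 24 h after ligation, of 1915 genes, 28 (1.46%) were higher and 34 (1.78%) lower, and 17 and 17 without it. At 72 h, of 3687 genes, 25 (0.678%) were higher and 84 (2.28%) lower, and 13 and 41 without it. The split of calls at 24 h depended on the scaling: with TMM scaling 52 were higher and 18 lower, or 74.3% higher in place of 45.2%, after a shift of all genes by 0.17 on the log2 scale. With the mean over cells in place of summed UMIs, 36.6% of the calls at 72 h were higher in place of 22.9%. Within the limits for named genes, no gene was called the same way in all 3 conditions.

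After sham, several of the largest KO ratios came from single cells. All 88 UMIs of the eosinophil chemokine Ccl24 in KO lay in 1 member, and 1 member each held all KO UMIs of Cxcl10, 92.9% of Arg1 and 94.8% of Ccl22; the 4 calls were lost without that member. Calls that held were Isg15 (3.85-fold, 2.50 to 6.05, against WT), an interferon-induced ubiquitin-like protein, Irf8 (4.83-fold, 2.79 to 8.76) and Ctsl (5.91-fold, 3.47 to 10.6). Atf3 was at 0.166 (0.0861 to 0.295) times its WT level, and Tnip3 at 0.407 (0.251 to 0.636) times. The macrophage genes Apoe (10.1-fold) and Pf4 (46.3-fold) were higher in KO as well; 1 member held 60.6% of the KO UMIs of Apoe and 82.6% of those of Pf4, and both were still called without it. Of the 15 macrophage genes, 5 were measured, 3 called higher and the list summed to 322 CPM in WT and 1144 in KO. The part of macrophage RNA in the sham differences was not tested.

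At 24 h after ligation, Fam162a, a hypoxia-responsive mitochondrial protein, was at 3.00 (1.80 to 5.29) times its WT level in KO, Gngt2, a G protein gamma subunit, at 2.92 (1.81 to 4.91) times, and Kcnn4, a calcium-activated potassium channel, at 2.55 (1.34 to 5.26) times. Kcnn4 went from 40.6 to 104 CPM between WT and KO. Lower in KO were Klf4 (0.254 times, 0.140 to 0.442), a factor needed by some cDC2 and monocytes, Rgs1 (0.305 times, 0.194 to 0.470), a brake on chemokine receptors, and the chromatin remodeller Atrx (0.320 times, 0.187 to 0.537). Of 14 dissociation genes measured, 12 were below 1 and 3 called lower, with a median of −0.53; Fos was at 0.420 times its WT level. S100a8 and S100a9 were called higher, and not without the top member.

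At 72 h, Tppp3, Ly6c2 and Isg20 were called higher in KO, and not without the top member. Proliferation genes were lower in KO: 0 of 8 measured were above 1, 6 were called lower (Tubb5 not without the top member) and the median was −1.50. Top2a was at 0.0703 (0.0142 to 0.212) times its WT level, Stmn1 at 0.249 (0.163 to 0.367) times, Birc5 at 0.196 times and Mki67 at 0.299 times. The histone genes Hist1h1b (0.141 times) and Hist1h2ap (0.209 times) were lower likewise. Hist1h1b was in 13 of 66 KO and 21 of 89 WT members, and Hist1h2ap in 31 and 39. In WT, 1 member held 47.8% of the Hist1h1b UMIs and 1 member 32.5% of those of Hist1h2ap. Without the top member the log2 ratios were −1.92 in place of −2.83 and −1.72 in place of −2.26, both still called. With the mean over cells the median of the proliferation list was −0.65.

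The depth of these 2 libraries differed, with medians of 12599 UMIs per WT member and 9564.5 per KO member. At 72 h the KO members had more of other cells' markers: S100a8 was 8.24-fold, S100a9 4.12-fold, C1qb 8.06-fold and Apoe 2.58-fold higher than in WT, the first 3 being capped by the rule. The neutrophil list summed to 52.0 CPM in WT and 202 in KO, with 2 of 10 genes measured. The macrophage list summed to 667 and 966 CPM. Their part in the KO differences was not tested. The class II list outside the rule had medians of 0.03 after sham, 0.10 at 24 h and −0.13 at 72 h in KO against WT, with 0 genes called in each; the sham median was −0.02 with no UMI minimum.

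**Figure D5:**
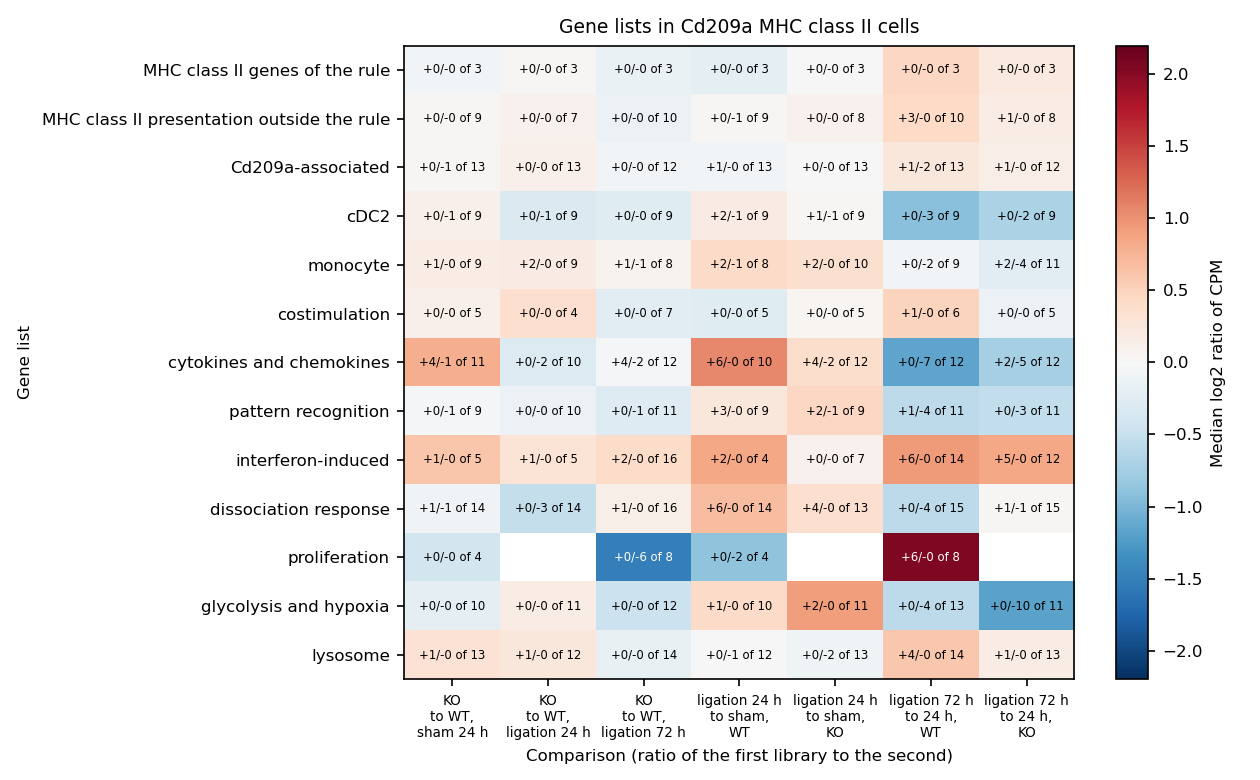
Median log2 ratio of 13 gene lists (rows) in 7 comparisons of 2 libraries each (columns), first library over second, with the number of genes called higher and lower of those measured; fields with fewer than 3 measured genes are blank. Glycolysis and hypoxia genes are lower at 72 h than at 24 h (−0.57 in WT, −1.17 in KO), interferon-induced genes higher (0.94 and 0.85), and proliferation genes higher in WT (2.06, or 1.36 with no UMI minimum).

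Trpm4 itself was near the limit of detection in members, with 20 UMIs in 17 of them. By library these were 7 UMIs in WT and 0 in KO after sham, 3 and 2 at 24 h after ligation, and 7 and 1 at 72 h. These counts are too few for a ratio. Of the other 11 genes of the transient receptor potential and calcium list, few were measured, and 0 were called in any of the 7 pairs. Orai1, the pore of the store-operated calcium channel, was at 208 and 184 CPM after sham, 362 and 331 at 24 h after ligation, and 219 and 223 at 72 h, and Trpv2, another cation channel of this family, lay between 25.9 and 58.9 CPM.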

How the data were processed

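UMI counts were deposited as whole numbers per gene and cell, 1 matrix for each of 6 libraries of 4 pooled mice, made by the authors with Cell Ranger 6.0.0 on mm10 per the submitters' processing notes; the annotation and any later filter are not given in the sources used here. The counts were used as deposited. Of 32285 gene identifiers, 32158 (99.6%) matched GENCODE M21 (GRCm38), used for positions only. Members and the other gates were found by rules on raw UMIs, with no clustering. The members and gene lists were chosen with earlier results of these data known.

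UMIs of the members were summed per library and scaled to CPM. Shares have exact Clopper-Pearson intervals, levels Poisson intervals, and ratios of Poisson counts an exact conditional interval, all at 95%; a count of 0 was set to 3 UMIs for a bound. Ratios needed at least 50 UMIs over the pair and at least 20 members in both libraries. Counting error covers neither mice nor preparations, and PCR copies are removed only as far as UMIs allow. Named genes were the list genes, the 4 highest and 4 lowest ratios per pair among called genes that reached 100 CPM, and 0.25 of the level in the highest other gate, in the library where they were higher, without mitochondrial, ribosomal protein, hemoglobin and sex-linked genes, and genes called the same way in both genotypes of a time step or in all 3 genotype pairs.

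Doublets were scored with Scrublet, whose automatic threshold marked 0 to 62 cells per library; they were kept, and leaving out the highest scores (which removed 2 members) was an alternative. Other alternatives were at least 2 Cd209a UMIs, at least 2000 UMIs per cell, cells thinned to 1000 UMIs, leukocytes as denominator, TMM scaling (edgeR 4.0.16, R 4.3.3), the mean over cells and no UMI minimum. Scripts ran on Python 3.11.15 with scanpy 1.11.5, scipy 1.17.1 and numpy 2.4.6, and were tested on simulated counts. Hspa1a and Hspa1b are near-identical copies. A few genes that the rule names are not reported here.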

Additional observations from a re-analysis of the deposited data

Results flagged for a closer look

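Between sham and 24 h after ligation, 2 of the named or listed genes were called in opposite directions in WT and KO members. The lncRNA gene B930036N10Rik had a log2 ratio of 2.39 in WT and −1.43 in KO. Its range over the 6 libraries was 11.7 to 129 CPM in members. The range was similar in other gates, at 11.9 to 95.7 CPM in C1q macrophages and 10.7 to 131 CPM in Ly6c2 monocytes. Apoe, a lipoprotein gene of macrophages, had 3.71 in WT and −2.33 in KO. For Apoe, 1 member held 45.3% of the 117 UMIs of the WT library at 24 h, and 1 member held 60.6% of the 132 UMIs of the KO sham library; without them the log2 ratios were 2.88 and −1.02. With 1 library per group, the difference between the genotypes was not tested.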

How the results depend on the processing

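No paired analysis was possible because each group has 1 library and no replicate number. Limits are the single library per group, the 24 members of the smallest library, and the need for whole UMIs, which ties membership to depth: with cells thinned to 1000 UMIs the shares were 0.151, 0.172, 0.125, 0.163, 0.523 and 0.332% (WT and KO after sham, at 24 h and at 72 h), the 72 h to 24 h ratio in KO was 2.04, and under 20 members were left in a library of each of the 7 comparisons, so that no genes could be compared. In the KO library at 72 h the share was 2.43% of cells with at least 2000 UMIs and 1.06% with at least 2 Cd209a UMIs. The latter made the KO 72 h to 24 h ratio 1.79. With thinned cells and with at least 2 Cd209a UMIs, the intervals of the KO shares at 72 h and 24 h overlapped, while those in WT stayed apart. Over leukocytes the shares were 2.53, 2.15, 1.13 and 1.99% (WT and KO sham, WT at 24 h, KO at 72 h), and the 24 h to sham ratios 0.447 and 0.362.

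With no UMI minimum the genes called higher and lower were 232 and 142 for KO to WT after sham, 99 and 332 at 24 h, 192 and 216 at 72 h, 325 and 217 for 24 h to sham in WT, 134 and 306 in KO, 548 lower for 72 h to 24 h in WT, and 352 and 339 in KO. Without the top member they were 26 and 23, 17 and 17, and 13 and 41 for KO to WT, 57 and 53 for 24 h to sham in WT and 20 lower in KO, 128 lower for 72 h to 24 h in WT and 53 higher in KO. TMM gave 52 and 18 for KO to WT at 24 h, the mean over cells 56 higher at 72 h, and at least 2 Cd209a UMIs 52 lower for 24 h to sham in WT.

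List medians that moved beyond their counting interval, with the mean over cells, were for KO to WT −1.37 (macrophage, 24 h) and, at 72 h, −0.27 (class II of the rule), −0.25 (Cd209a-associated), −0.65 (proliferation), −0.10 (glycolysis) and 0.14 (lysosome). For the steps in WT they were −0.11 and 0.39 (class II of the rule at 24 h and 72 h) and 1.47 and −1.68 (cytokines), and in KO 0.0703 (class II of the rule at 72 h). The class II genes of the rule were at 0.19 (KO to WT, 24 h), 0.13 (24 h to sham, KO) and 0.58 (72 h to 24 h, WT) with TMM, at −0.0835 (KO to WT, 72 h) with 2 Cd209a UMIs and at 2.10e-05 (KO to WT, sham) without the highest Scrublet scores. With no UMI minimum the medians were 1.19 (mature DC), 0.59 (monocyte) and 2.35 (macrophage) for KO to WT after sham, 0.83 (mature DC) at 72 h, 0.23 (class II outside the rule), −0.29 (cDC2) and 1.36 (proliferation) for 72 h to 24 h in WT, and 2.24 (macrophage) in KO. The other medians stayed within that interval.

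Log2 ratios changed sign with the mean over cells for Ccl2 (0.0289), Cd14 (0.12) and Pf4 (0.29) in KO to WT at 72 h, and Ccl2 (0.0551) and S100a9 (0.45) in 72 h to 24 h in KO. Without the top member they did so for Ccl22 (−0.39), Cx3cr1 (−0.87) and Vcan (−0.0690) in KO to WT after sham, Ccl2 (4.05) and Egr1 (0.63) at 24 h, and Ccl3 (0.76), Ccl7 (−0.0254) and Pf4 (1.0) at 72 h. For 24 h to sham these were Ccl2 (−4.55) and Egr1 (−0.23) in WT and Ccl22 (1.80) and Cx3cr1 (0.48) in KO, and for 72 h to 24 h in WT Ccl2 (4.51), Ccl7 (2.94), Cd209d (1.90), Cxcl2 (0.45) and Egr1 (0.37). Of 323 named ratios, 217 kept their call without the top member and 309 with TMM. Apart from the removal of members or genes by construction, the cause was not tested.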

Other observations

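Adhesion and chemokine receptor genes of the members were not described above. Of the 14 listed, 9 were measured for KO to WT after sham. Itgb7, which pairs with Itga4 or Itgae in homing to mucosal sites, was in 77.2% of members, at 154 and 135 CPM after sham, 88.0 and 158 at 24 h after ligation, and 257 and 211 at 72 h, and 2.92-fold higher at 72 h than at 24 h in WT; C1q macrophages had a median of 22.7 CPM. Selplg, the selectin ligand, was in 83.9% and at 199 to 355 CPM. At a common 1000 UMIs Itgb7 was in 17.2% of members and 0.110% of endothelial cells (unthinned 0.483%) and Selplg in 23.8% of members and 0.412% of endothelial cells (unthinned 1.43%). S1pr1, which lets lymphocytes leave tissue, had 11 UMIs in 5 members.

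Among pattern recognition genes, Tlr2 was at 34.7 and 20.9 CPM after sham, 81.2 and 77.2 at 24 h after ligation, and 31 and 24.2 at 72 h, with the 24 h libraries highest. Tlr4, Tlr7 and Tlr9 had 17, 6 and 12 UMIs over all members. Olfm1, a secreted glycoprotein gene better known from neurons, was in 84.2% of members and at 174 to 273 CPM, against a median of 62.9 CPM in C1q macrophages and 64.6 CPM in Ly6c2 monocytes. With cells thinned to 1000 UMIs it was in 19.0% of members and 0.547% of endothelial cells, against 2.56% of endothelial cells before thinning.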
